A study of Mus musculus with 22 samples.

Results

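Activin and TGF-beta signalling was followed through 10 genes chosen by name: the ligand genes Inhba and Tgfb1, the type I receptor genes Acvr1b and Tgfbr1, the type II receptor genes Acvr2a and Tgfbr2, the receptor-activated SMAD genes Smad2 and Smad3, the common SMAD gene Smad4 and the inhibitory SMAD gene Smad7. These are 10 of the 35596 genes for which reads could be summed, and all 10 passed the filter on low counts that left 12415 genes for testing. The measurements were bulk RNA-seq profiles of retinal microglia, made with SMART-Seq2, which amplifies whole cDNA from few cells. The 22 libraries fell into Apoe-/- phagocytic (n = 6), Apoe-/- non-phagocytic (n = 6), wild-type phagocytic (n = 5) and wild-type non-phagocytic cells (n = 5). Apoe encodes the lipid carrier apolipoprotein E. Mice of both genotypes were 12 weeks old and all had received apoptotic neurons into the vitreous, so that no group was free of the injection. Wild-type mice were C57BL/6, and the strain label of the others is Apoe KO. Cells were taken 24 hours after the injection as CD11b+, Fcrls+ and Ly6c-, and the Alexa488 signal parted phagocytic from non-phagocytic cells. Each library came from 5 to 6 pooled retinas of 1 sex and genotype, and only 100 to 500 phagocytic cells were collected per pool. A p-value here therefore reflects how far pools differed, and not single mice. In bulk libraries, a smaller number of expressing cells and less RNA per cell cannot be told apart.

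Activins are dimers of inhibin beta subunits and are bound by type II receptors such as that encoded by Acvr2a, which then activate the type I receptor encoded by Acvr1b. TGF-beta uses the receptors encoded by Tgfbr2 and Tgfbr1 in the same order. Both routes phosphorylate SMAD2 and SMAD3, which join SMAD4 and enter the nucleus, while SMAD7 is induced by the pathway and acts against its receptors. TGF-beta signalling is required in mouse microglia for their homeostatic gene programme.

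Libraries held 1133577 to 3649436 estimated reads, of which predicted genes made of satellite repeats took 9.13% to 51.7%, leaving 854872 to 2890156 reads for other genes. Levels are given as CPM, read counts set to a common library size after TMM scaling of library sizes. Apoe reached 8.91 to 34.9 CPM and 7.02 to 17.6 CPM in Apoe-/- phagocytic and non-phagocytic libraries, against 1317 to 5145 CPM and 869 to 1604 CPM in the wild-type libraries. All 10 microglia markers examined were detected in each group, with a summed level of 5777 to 20843 CPM over the 22 libraries. The 9 markers of border macrophages summed to 413 to 1077 CPM in Apoe-/- phagocytic and 193 to 327 CPM in Apoe-/- non-phagocytic libraries. In wild-type libraries they summed to 505 to 993 CPM in phagocytic and 261 to 375 CPM in non-phagocytic cells. The Y-linked genes Ddx3y and Eif2s3y together were at or below 2.70 CPM in Apoe-/- pools 4, 5 and 6 and in wild-type pool 5 in both sorts, and at or above 43.7 CPM in the other pools. Pools low in these genes were thus not evenly spread over the genotypes, and the main fit held no term for sex.

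Compared per length of transcript, as TPM, the TGF-beta receptor genes stood highest and the activin receptor genes below all SMAD genes. Over the 22 libraries the median was 48.0 TPM for Tgfbr2 and 36.3 TPM for Tgfbr1, followed by 15.3 TPM for Smad2, 14.9 TPM for Tgfb1 and 12.0 TPM for Smad3. Smad4 (4.39 TPM), Smad7 (3.87 TPM), Acvr2a (2.45 TPM), Acvr1b (1.74 TPM) and Inhba (0.343 TPM) followed. Tgfbr1 stood above Smad2, the next gene in the order, in 21 of 22 libraries, and Smad3 stood above Smad4 in 20. The other neighbours in the order overlapped more, as Tgfbr2 lay above Tgfbr1 in 16 of 22 libraries, Smad2 above Tgfb1 in 15, Tgfb1 above Smad3 in 14, Smad7 above Acvr2a in 16 and Acvr1b above Inhba in 17. The closest neighbours were Smad4, above Smad7 in 12 libraries, and Acvr2a, above Acvr1b in 11. Ranked by TPM within each library, Tgfbr2 stood above 84.9% of the genes tested and Inhba above 3.73% in the median library.

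**Figure D1:**
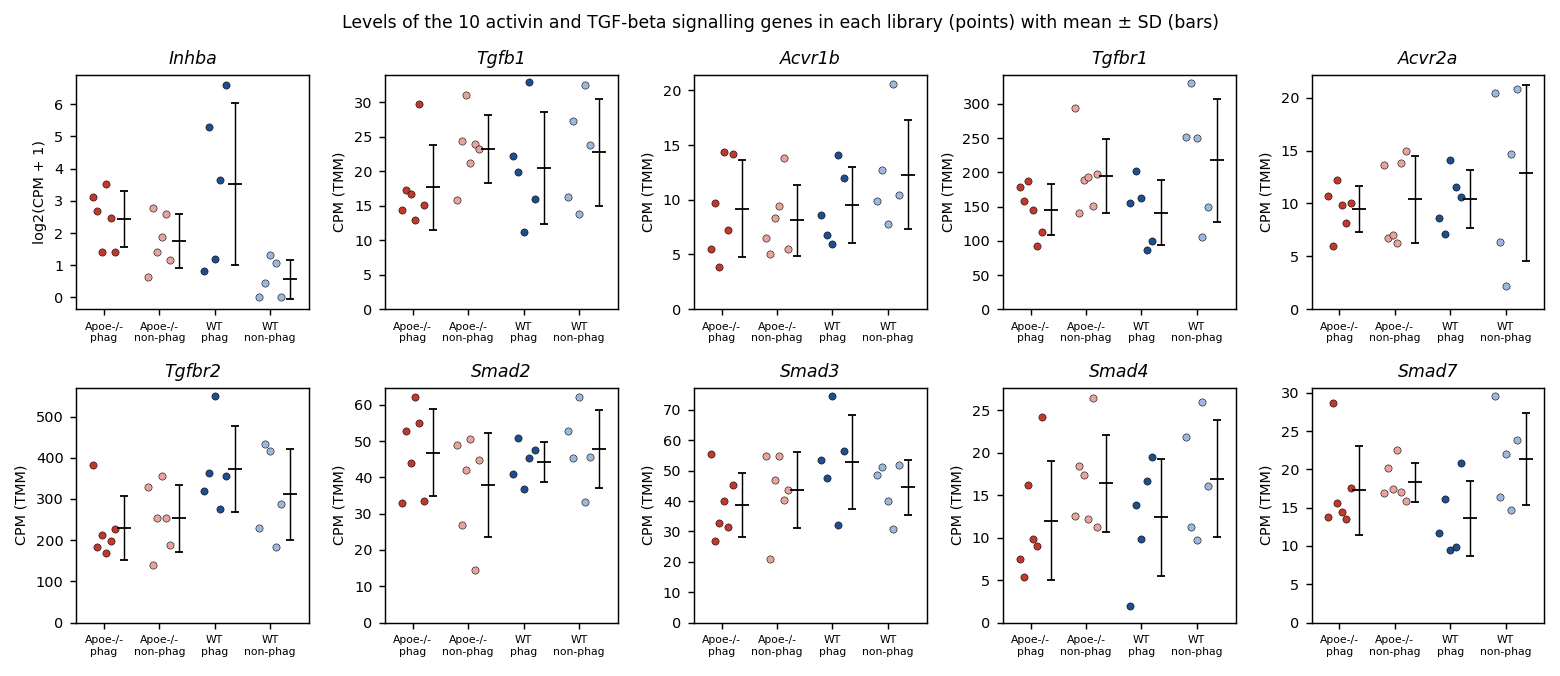
Level of each of the 10 genes in each library (points) with mean ± SD (bars) for Apoe-/- phagocytic and non-phagocytic (n = 6 each) and wild-type phagocytic and non-phagocytic microglia (n = 5 each); the y axis is CPM after TMM scaling, except for Inhba, which is on log2(CPM + 1). The highest values of Inhba are those of wild-type phagocytic pools 2 and 5 (38.3 and 95.5 CPM), and the groups of every gene overlap.

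The ligand gene Inhba, which encodes the inhibin beta A subunit of activin A, was the only member called with phagocytosis. Inhba was called in wild-type cells and over both genotypes, and not in Apoe-/- cells. It lies on chromosome 13 from 16011851 to 16031621 on the plus strand (GRCm38). Its level in wild-type phagocytic pools 1 to 5 was 0.781, 38.3, 1.29, 11.6 and 95.5 CPM (2, 119, 3, 27 and 215 reads), against 0, 0.374, 1.49, 1.08 and 0 CPM (0, 1, 4, 2 and 0 reads) in the wild-type non-phagocytic pools. Pools 2, 4 and 5 of the phagocytic cells lay above every non-phagocytic pool, and pools 1 and 3 lay within their range. In edgeR's quasi-likelihood test, Inhba rose in wild-type phagocytic cells by 5.43 ± 1.06 on the log2 scale (SE; 95% interval 3.24 to 7.62; Benjamini-Hochberg adjusted p = 0.0184). It was the 1 member of 10 called in this comparison, in which 0.209% of all genes tested were called. The median log2 fold change of the 10 members was -0.22, against -0.01 over all genes tested.

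The call in wild-type cells rested on few reads and on single libraries. Without phagocytic pool 5 the log2 fold change was 4.27 and edgeR's Benjamini-Hochberg adjusted p was 0.0982, and without phagocytic pool 2 it was 5.32 with an adjusted p of 0.0515. The adjusted p (edgeR, Benjamini-Hochberg) was 0.0661, 0.0880 and 0.0696 without non-phagocytic pool 1, 2 or 5. Without Apoe-/- phagocytic pool 1 or 4, Inhba did not pass the filter and had no test. Nor did Inhba pass the filter with only the wild-type groups compared, so that its place among the genes tested depended on the libraries included. In an exact permutation test added after seeing the data, the mean of log2(CPM + 1) was 2.95 higher in wild-type phagocytic than in non-phagocytic libraries (2-sided p = 0.0397, n = 5 each, 0.0794 after adjustment over 4 comparisons).

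In Apoe-/- retinas, Inhba had 7.71, 5.40, 1.67, 10.6, 4.50 and 1.67 CPM in phagocytic pools 1 to 6, with a lowest, median and highest value of 1.67, 4.95 and 10.6 CPM. The Apoe-/- non-phagocytic pools had 0.544, 5.88, 1.66, 2.70, 5.03 and 1.22 CPM, with 0.544, 2.18 and 5.88 CPM as lowest, median and highest. The groups overlapped over most of their range, and no Apoe-/- library reached the level of wild-type phagocytic pools 2, 4 or 5. The log2 fold change was 0.99 ± 0.85 (95% interval -0.76 to 2.73; edgeR, Benjamini-Hochberg adjusted p = 0.792). Over both genotypes together, Inhba rose with phagocytosis by 3.21 ± 0.68 on the log2 scale (edgeR, Benjamini-Hochberg adjusted p = 0.00835). It was again the 1 member of 10 called, where 2.36% of all genes tested were called.

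The sort effect on Inhba was 4.44 ± 1.35 smaller on the log2 scale in Apoe-/- than in wild-type cells (95% interval of the difference -7.22 to -1.67). Its unadjusted p of 0.00289 was the 7th smallest of the 12415 genes tested, but the Benjamini-Hochberg adjusted p in edgeR was 1.00, so that no difference between the genotypes was called. In phagocytic cells alone, Inhba averaged 5.26 ± 3.49 CPM in Apoe-/- (n = 6) and 29.5 ± 39.9 CPM in wild-type libraries (n = 5). This log2 fold change of -2.45 ± 0.81 did not pass either (edgeR, Benjamini-Hochberg adjusted p = 0.519). It was -1.29 without wild-type phagocytic pool 5, and the mean of log2(CPM + 1) was different by -1.07 in Apoe-/- against wild-type phagocytic libraries by the exact permutation test (2-sided p = 0.351). Pool 5 was also the only wild-type phagocytic pool low in the Y-linked genes, and a part of sex in its Inhba level was not tested. In non-phagocytic cells the averages ran the other way, with 2.84 ± 2.16 CPM in Apoe-/- and 0.590 ± 0.671 CPM in wild-type libraries (a change of 1.99 ± 1.08 in edgeR, Benjamini-Hochberg adjusted p = 0.999). There the mean of log2(CPM + 1) was 1.18 higher in Apoe-/- libraries by the exact permutation test (2-sided p = 0.0260, 0.0794 after adjustment over 4 comparisons). With no filter on low counts, when 32368 genes were tested, Inhba passed in the phagocytic comparison (edgeR, Benjamini-Hochberg adjusted p = 0.0189) and in the difference of the sort effect (0.0277). Of all genes, 96 and 17 were called in these comparisons without the filter, against 4 and 0 in the main fit.

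Border macrophage markers moved with the phagocytic sort as well. Of 9 markers 8 were tested. In wild-type phagocytic cells 2 were called higher and in Apoe-/- phagocytic cells 3, where 0.209% and 0.467% of all genes tested were called. Over both genotypes 7 of the 8 were called higher, where 2.36% of all genes tested were called. Summed levels did not overlap between the sorts in either genotype. Within groups, the deviations of Inhba and of this marker sum had a Pearson r of 0.340 over 22 libraries (Spearman rho 0.238; permutation p adjusted over 60 relations 0.503). With group means kept, r was 0.576. Markers of dendritic cells summed to 18.9 to 104 CPM in Apoe-/- phagocytic and 59.7 to 152 CPM in Apoe-/- non-phagocytic libraries, and to 11.3 to 57.3 CPM in wild-type phagocytic and 25.7 to 344 CPM in wild-type non-phagocytic libraries, with Btla at 0 in all of the phagocytic ones. The sum of 8 monocyte markers was 334 to 1202 CPM in Apoe-/- phagocytic and 1038 to 3224 CPM in wild-type phagocytic libraries. In non-phagocytic libraries it was 458 to 1164.5 CPM in Apoe-/- and 614 to 2903 CPM in wild-type retinas. Over both genotypes 2 of the 8 were called higher with phagocytosis, where 2.36% of all genes tested were called, and 5 had a positive and 3 a negative log2 fold change. In Apoe-/- against wild-type phagocytic cells 0 were positive and 8 negative, with a median of -1.77. There 0 were called, and 5 had an unadjusted p under 0.05 in edgeR, where 6.62% of all genes tested did. The part of border macrophages, dendritic cells and monocytes in the levels of Inhba was not tested.

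The reads of Inhba were assigned to 2 transcripts, both protein-coding. Inhba-201 spans the gene, and Inhba-202 starts later, at 16014475, and ends earlier, at 16027211. Inhba-202 held 108.95 of the reads of wild-type phagocytic pool 2 and 162.775 of those of pool 5, and altogether 76.7% of the Inhba reads of wild-type phagocytic cells. It held 33.8% in Apoe-/- phagocytic, 14.8% in Apoe-/- non-phagocytic and 0% in wild-type non-phagocytic libraries, where Inhba had few reads. Reads of Inhba-202 came from 7 of the 22 libraries. A pseudogene on the opposite strand, B230303A05Rik, overlaps Inhba, and whether counting used strand is not given in the sources used here. It averaged 1.83 ± 1.15 CPM in wild-type phagocytic and 1.32 ± 0.988 CPM in wild-type non-phagocytic libraries and never exceeded 7.63 CPM in any library.

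The window before the start of Inhba-201 is printed because Inhba was the only member called with phagocytosis. It does not lie directly before the start of Inhba-202, to which most reads of wild-type phagocytic cells were assigned. The 250 bases before the annotated start (RefSeq, GRCm38.p6, chr13:16011601-16011850, plus strand) are given 5′ to 3′, with a TATA box (TATAAA) in capitals.
Inhba: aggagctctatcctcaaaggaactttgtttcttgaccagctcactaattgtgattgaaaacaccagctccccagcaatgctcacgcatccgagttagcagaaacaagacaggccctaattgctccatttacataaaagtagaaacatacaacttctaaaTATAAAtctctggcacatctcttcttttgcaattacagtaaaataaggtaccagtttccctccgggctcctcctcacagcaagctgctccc
Matches were sought on both strands for the SMAD box CAGAC, the AP-1 site TGANTCA (N is any base), the cyclic AMP response element TGACGTCA and the TATA box TATAAA, none of which lies within another, although the response element contains the dinucleotide CG. Of 32851 promoters of the same length, 42.2% held CAGAC, 6.75% TGANTCA, 1.55% TGACGTCA and 12.4% TATAAA. The window of Inhba held 1 TATAAA, 3 CG and 0 matches of the other motifs. Its GC content was 43.2%, against a median of 52.4% over all promoters, and 19.0% of promoters were lower. Among the members with a promoter in the RefSeq table (7 of 10), those other than Inhba had a GC content of 52.8% to 82.0% and no TATAAA. A match is a description of letters and not a binding site.

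The genes whose levels ran most like those of Inhba over the 22 libraries, among 12414 others, were Cxcl3 (Pearson r 0.667), a chemokine gene, Aebp1 (0.666), Cd38 (0.664), which encodes an NAD-consuming ectoenzyme, Dcaf5 (0.654) and Mrpl41 (0.645), a gene of the mitochondrial ribosome. Spearman's rho for these was 0.590 to 0.756. Without wild-type phagocytic pools 5 and 2, the libraries farthest from the median of Inhba, r was 0.531 to 0.668. These values describe the libraries, since the genes were picked as the highest of all.

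The other ligand gene, Tgfb1, encodes TGF-beta 1 and lies on chromosome 7 from 25687002 to 25705077. It had 14.3, 17.3, 16.7, 12.9, 29.7 and 15.1 CPM in Apoe-/- phagocytic pools 1 to 6 and 15.8, 24.4, 31.1, 21.2, 23.9 and 23.2 CPM in Apoe-/- non-phagocytic pools. Phagocytic pool 5 stood above the other 5, which reached at most 17.3 CPM, and the groups overlapped. Wild-type phagocytic pools had 22.3, 19.9, 11.1, 32.9 and 16.0 CPM, against 16.2, 27.3, 13.8, 32.5 and 23.8 CPM in the non-phagocytic pools, which cover the same range. The log2 fold change with phagocytosis was -0.41 ± 0.29 in Apoe-/- and -0.15 ± 0.31 in wild-type cells (edgeR, Benjamini-Hochberg adjusted p = 0.714 and 0.971).

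Most Tgfb1 reads were assigned to transcripts other than its coding one, and such assignments are estimates. Tgfb1-204, annotated as a retained intron from 25688890 to 25691462, held 65.0% of the reads over all libraries, and the coding transcript Tgfb1-201 held 26.3%. The median share of Tgfb1-204 was 64.9% in Apoe-/- phagocytic, 75.2% in Apoe-/- non-phagocytic, 54.7% in wild-type phagocytic and 69.7% in wild-type non-phagocytic libraries, with overlapping ranges. When only protein-coding transcripts were counted, an alternative added after seeing the data, the log2 fold change with phagocytosis turned to 0.21 in Apoe-/- and 0.37 in wild-type cells. Neither passed (edgeR, Benjamini-Hochberg adjusted p = 0.955 and 0.950), so that the sign of the change in Tgfb1 depended on which transcripts were counted.

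Of the receptors, Tgfbr1, which encodes the TGF-beta type I receptor (chromosome 4, 47353222 to 47414931), was the one whose averages were lower in phagocytic cells of both genotypes by the most. It had 179, 158, 187, 145, 91.9 and 113 CPM in Apoe-/- phagocytic pools 1 to 6, against 293, 140, 189, 193, 151 and 198 CPM in Apoe-/- non-phagocytic pools. In wild-type phagocytic pools 1 to 5 it had 155, 202, 163, 86.0 and 99.5 CPM, against 252, 331, 250, 106 and 149 CPM in wild-type non-phagocytic pools. Groups overlapped in both genotypes, the highest phagocytic libraries lying above the lowest non-phagocytic ones. The log2 fold change was -0.41 ± 0.26 in Apoe-/-, -0.62 ± 0.28 in wild-type and -0.52 ± 0.19 over both (95% interval -0.91 to -0.13). None passed in the main fit, where edgeR's Benjamini-Hochberg adjusted p over both genotypes was 0.174 (unadjusted p = 0.0117). In wild-type cells edgeR's Benjamini-Hochberg adjusted p was 0.603 (unadjusted p = 0.0361). With the share of satellite-like reads as a covariate the change over both genotypes was -0.60 and passed the threshold (edgeR, Benjamini-Hochberg adjusted p = 0.0408). Tgfbr1 was called over both genotypes as well with a block for pool number within genotype, a pairing that the labels do not state. With that block 644 genes were called over both genotypes, against 293 in the main fit.

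Tgfbr1 followed the microglia markers closely from library to library. With the group means removed, log2 levels of Tgfbr1 and of the sum of 10 microglia markers, which does not include Tgfbr1, had a Pearson r of 0.920 over 22 libraries and a Spearman rho of 0.887. Both had a permutation p of 1e-05, the smallest that 100000 permutations within groups can give, and 0.0006 after adjustment over 60 relations of members with library measures. Without the 2 libraries farthest from the median, r was 0.890. It was the 1 of 60 relations for which both coefficients passed after adjustment. The marker sum itself had a median of 9883 CPM in Apoe-/- phagocytic and 13081 CPM in Apoe-/- non-phagocytic libraries, and of 12279 CPM in wild-type phagocytic and 10227 CPM in wild-type non-phagocytic libraries. The points share library, depth and scaling, and the part of these in the relation was not tested.

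Tgfbr2 encodes the TGF-beta type II receptor (chromosome 9, 116084293 to 116175360, minus strand) and held the most reads of the 10 genes, 14305 in all. Apoe-/- phagocytic pools 1 to 6 had 384, 183, 213, 169, 197 and 228 CPM, and wild-type phagocytic pools 1 to 5 had 319, 363, 549, 276 and 356 CPM. Of the Apoe-/- pools 5 lay below every wild-type pool, and pool 1 lay above 4 of them. Reads outside satellite-like genes were split alike, with 854872 to 1429063 in Apoe-/- phagocytic pools 2 to 6 and 2890156 in pool 1. Wild-type phagocytic pools held 1733850 to 2725798. The satellite-like share was 13.6% to 36.9% in Apoe-/- and 10.3% to 20.6% in wild-type phagocytic libraries. The part of depth and of this share in the Tgfbr2 levels was not tested. Non-phagocytic pools had 328, 139, 253, 356, 255 and 188 CPM in Apoe-/- retinas, against 230, 434, 417, 184 and 289 CPM in wild-type retinas, with wide overlap. The log2 fold change in Apoe-/- against wild-type cells was -0.70 ± 0.26 in phagocytic cells and -0.30 ± 0.26 in non-phagocytic cells. Over both sorts it was -0.50 ± 0.19 (95% interval -0.88 to -0.12). The unadjusted p over both sorts was 0.0126, and the change did not pass (edgeR, Benjamini-Hochberg adjusted p = 0.440). The change of Tgfbr2 with phagocytosis was -0.14 ± 0.25 in Apoe-/- and 0.26 ± 0.27 in wild-type cells.

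The activin receptor genes were low and varied widely between pools. Acvr1b, which encodes the activin type I receptor ALK4, ranged from 3.90 to 14.4 CPM in Apoe-/- phagocytic and 5.04 to 13.8 CPM in Apoe-/- non-phagocytic libraries, and from 6.00 to 14.1 CPM in wild-type phagocytic and 7.83 to 20.6 CPM in wild-type non-phagocytic libraries. Acvr2a, a type II receptor gene, ranged from 5.94 to 12.3 CPM in Apoe-/- phagocytic and 6.31 to 14.96 CPM in Apoe-/- non-phagocytic libraries, and from 7.08 to 14.1 CPM in wild-type phagocytic and 2.24 to 20.8 CPM in wild-type non-phagocytic libraries. Each group overlapped every other for both genes. Their log2 fold changes with phagocytosis lay between -0.37 and 0.15 with standard errors of 0.40 to 0.45, so that the 95% intervals reached from -1.23 to 0.97. The last exon of Acvr2a overlaps Orc4 on the opposite strand, which had 14.3 to 44.2 CPM in Apoe-/- libraries and 24.3 to 51.5 CPM in wild-type libraries.

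Of the SMAD genes, Smad3 ran with Tgfbr2. Smad3 (chromosome 9, 63646767 to 63757994, minus strand) had 55.6, 27.0, 32.9, 40.2, 31.5 and 45.1 CPM in Apoe-/- phagocytic pools 1 to 6, and 53.5, 47.6, 74.6, 32.1 and 56.4 CPM in wild-type phagocytic pools 1 to 5. Apoe-/- pool 1 and wild-type pool 3 were the highest of their groups for both Smad3 and Tgfbr2. With group means removed, the Pearson r of Tgfbr2 and Smad3 was 0.758 over 22 libraries (permutation p = 0.00014, 0.0063 after adjustment over 45 pairs of members). Spearman's rho was 0.730 (0.0288 after adjustment), and r was 0.646 without the 2 libraries farthest from the median. This was the 1 pair of 45 for which both coefficients passed. Tgfbr2 itself had r = 0.713 with the microglia marker sum (permutation p = 0.0207 after adjustment over 60 relations), with a rho of 0.641 that did not pass (0.116). Smad3 had r = 0.557 with that sum, which did not pass (adjusted permutation p = 0.113). With the share of satellite-like reads, r was -0.575 for Tgfbr2 and -0.500 for Smad3, and neither passed (adjusted permutation p = 0.133 and 0.169). The points share library, depth and scaling, and the part of these in the relation of the pair was not tested.

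**Figure D2:**
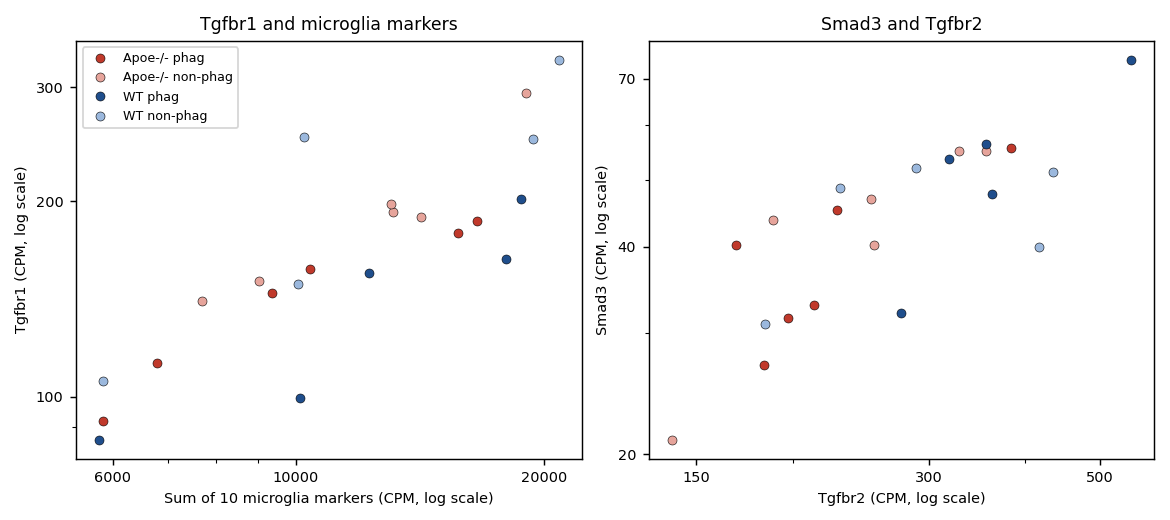
Left, Tgfbr1 against the sum of 10 microglia markers; right, Smad3 against Tgfbr2; all axes are CPM on a log scale and each point is 1 of 22 libraries, coloured by group. Libraries high in the marker sum are high in Tgfbr1 (r = 0.920 after group means were removed), and libraries high in Tgfbr2 are high in Smad3 (r = 0.758).

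The promoters of this pair are printed because their genes ran together across pools. The 250 bases before the start (RefSeq, GRCm38.p6) are chr9:116175364-116175613 for Tgfbr2 and chr9:63757995-63758244 for Smad3, both on the minus strand, with the SMAD box CAGAC in capitals.
Tgfbr2: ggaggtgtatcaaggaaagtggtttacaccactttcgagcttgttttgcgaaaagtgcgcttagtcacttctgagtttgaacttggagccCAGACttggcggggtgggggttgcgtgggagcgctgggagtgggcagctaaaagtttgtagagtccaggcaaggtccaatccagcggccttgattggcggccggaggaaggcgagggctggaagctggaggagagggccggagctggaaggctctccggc
Smad3: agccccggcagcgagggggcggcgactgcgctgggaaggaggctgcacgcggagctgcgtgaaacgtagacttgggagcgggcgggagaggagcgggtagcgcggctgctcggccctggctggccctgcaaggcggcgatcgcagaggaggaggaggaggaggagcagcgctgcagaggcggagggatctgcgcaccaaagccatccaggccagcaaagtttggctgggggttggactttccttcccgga
The window of Tgfbr2 held 1 CAGAC and 12 CG at a GC content of 58.4%, and that of Smad3 held 0 CAGAC and 22 CG at 69.2%. Neither held TGANTCA, TGACGTCA or TATAAA.

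Over the 22 libraries, the genes most like Tgfbr2 were Vars (r = 0.908), which encodes a valyl-tRNA synthetase, Abhd12 (0.902), a lipase gene, Mfsd10 (0.836), Hacd2 (0.825), an enzyme gene of very long chain fatty acid synthesis, and Slc35b2 (0.809), a transporter gene for the sulfate donor PAPS. Without wild-type phagocytic pool 3 and Apoe-/- non-phagocytic pool 2, r was 0.724 to 0.887.

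Smad2, the other receptor-activated SMAD, had 33.0 to 62.1 CPM in Apoe-/- phagocytic, 14.5 to 50.5 CPM in Apoe-/- non-phagocytic, 36.9 to 50.8 CPM in wild-type phagocytic and 33.1 to 62.3 CPM in wild-type non-phagocytic libraries. Its log2 fold change with phagocytosis was 0.28 ± 0.25 in Apoe-/- and -0.11 ± 0.27 in wild-type cells. Smad3 had changes of -0.17 ± 0.24 in Apoe-/- and 0.25 ± 0.26 in wild-type cells. Smad4, the partner of both, ranged from 5.40 to 24.2 CPM in Apoe-/- phagocytic and 11.3 to 26.4 CPM in Apoe-/- non-phagocytic libraries, and from 1.95 to 19.5 CPM in wild-type phagocytic and 9.69 to 26.0 CPM in wild-type non-phagocytic libraries. Its change was -0.46 ± 0.43 in Apoe-/- and -0.44 ± 0.46 in wild-type cells. The 95% intervals of these genes in the sort comparisons reached from -1.38 to 0.79.

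Smad7, which feeds back on the receptors, had 13.8, 28.6, 15.6, 14.4, 13.5 and 17.6 CPM in Apoe-/- phagocytic pools 1 to 6 and 16.9, 20.2, 17.4, 22.5, 17.0 and 15.9 CPM in Apoe-/- non-phagocytic pools. Apoe-/- phagocytic pool 2 stood above the rest of its group. Wild-type phagocytic pools 1 to 5 had 11.7, 16.1, 9.43, 9.84 and 20.9 CPM, against 29.6, 16.5, 21.996, 14.6 and 23.8 CPM in wild-type non-phagocytic pools. Pools 1, 3 and 4 of the wild-type phagocytic cells lay below every non-phagocytic pool, and the groups overlapped through pools 2 and 5. The log2 fold change was -0.08 ± 0.27 in Apoe-/- and -0.64 ± 0.30 in wild-type cells. In wild-type cells the unadjusted p was 0.0401 and Smad7 did not pass (edgeR, Benjamini-Hochberg adjusted p = 0.613).

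**Figure D3:**
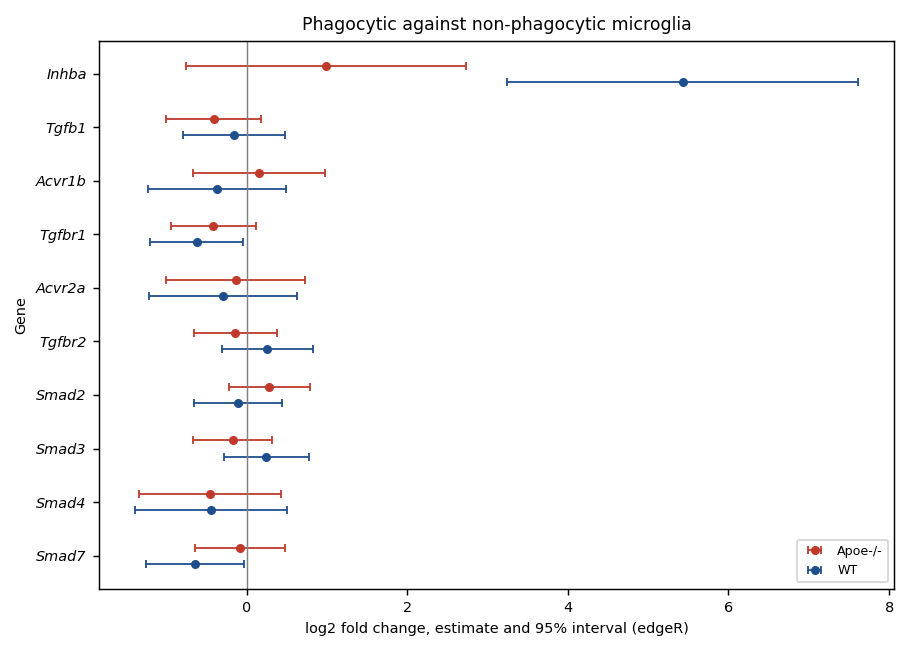
Log2 fold change of the 10 genes (rows) in phagocytic against non-phagocytic cells, estimate with 95% interval from edgeR, for Apoe-/- (upper mark) and wild-type cells (lower mark). The interval of Inhba in wild-type cells (3.24 to 7.62) lies apart from 0, and those of wild-type Tgfbr1 and Smad7 end just below 0.

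With phagocytosis in Apoe-/- cells, 0 of the 10 members were called by edgeR and 0 by DESeq2, and 0 had an unadjusted p under 0.05 in either. In edgeR 0.467% of all genes tested were called in this comparison, and 9.93% had an unadjusted p under 0.05. The median log2 fold change of the members was -0.14, against -0.02 over all genes. With phagocytosis over both genotypes, 2 members had an unadjusted p under 0.05 in each tool, where 14.5% of all genes tested did in edgeR. Between genotypes, edgeR and DESeq2 each called 0 of 10 members in phagocytic cells (0.0322% of all genes called by edgeR), in non-phagocytic cells (0.0161%) and over both sorts (0.0564%). Members with an unadjusted p under 0.05 in edgeR were 2 in phagocytic cells (Inhba and Tgfbr2), 0 in non-phagocytic cells and 1 over both sorts (Tgfbr2), against 6.62%, 3.8% and 9.68% of all genes tested. DESeq2 gave 2, 1 and 1. The difference of the sort effect had 0 of 10 members called by both tools, 1 with an unadjusted p under 0.05 in each, and 0% of all genes called by edgeR, where 2.42% had an unadjusted p under 0.05. Members' medians between genotypes were -0.10 in phagocytic cells, -0.19 in non-phagocytic cells and -0.16 over both sorts, against 0.00, 0.00 and -0.01 over all genes. No member's values were without overlap in any comparison of 2 groups. Of all genes tested, 0.87% were without overlap between the sorts in Apoe-/- and 2.14% in wild-type cells, and 0.789% between genotypes in phagocytic and 0.298% in non-phagocytic cells.

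**Figure D4:**
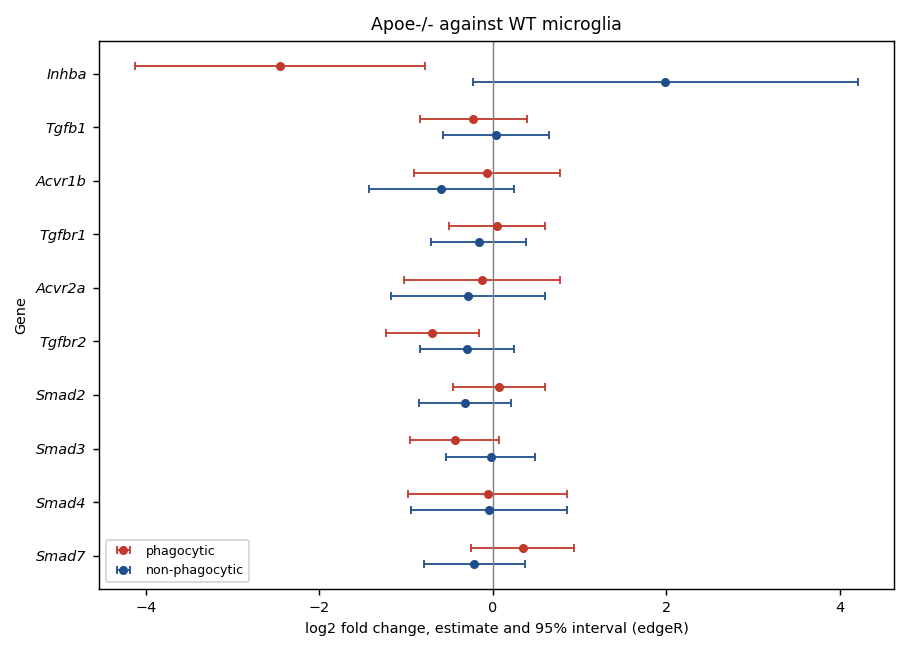
Log2 fold change of the 10 genes (rows) in Apoe-/- against wild-type cells, estimate with 95% interval from edgeR, for phagocytic (upper mark) and non-phagocytic cells (lower mark). In phagocytic cells Inhba (-2.45) and Tgfbr2 (-0.70) have intervals below 0, and neither passed after adjustment.

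Beyond the 10 members, 66 further genes of activin, TGF-beta and BMP signalling were listed, of which 38 passed the filter. Over both genotypes 1 of the 38 was called with phagocytosis, near the share of all genes tested (2.36%). It was Thbs1, which encodes thrombospondin 1, a matrix protein that can activate latent TGF-beta. It had 217, 68.5, 25.6, 156, 29.7 and 10.03 CPM in Apoe-/- phagocytic pools, against 12.5, 67.2, 0.415, 25.2, 5.03 and 14.0 CPM in Apoe-/- non-phagocytic pools. In wild-type phagocytic pools it had 328, 122, 258, 190 and 258 CPM, against 19.7, 10.5, 4.85, 64.0 and 27.3 CPM in wild-type non-phagocytic pools. Wild-type groups did not overlap, while Apoe-/- groups did. Over both genotypes Thbs1 rose by 2.67 ± 0.52 on the log2 scale (edgeR, Benjamini-Hochberg adjusted p = 0.00413). Within one genotype the changes of 2.12 ± 0.70 in Apoe-/- and 3.21 ± 0.77 in wild-type cells did not pass (edgeR, Benjamini-Hochberg adjusted p = 0.222 and 0.0829). In wild-type cells DESeq2 called it (adjusted p = 0.0349), as did edgeR with the wild-type groups alone (Benjamini-Hochberg adjusted p = 0.0157). Without wild-type non-phagocytic pool 4 or Apoe-/- non-phagocytic pool 2 or 3, edgeR's Benjamini-Hochberg adjusted p in wild-type cells was 0.0258, 0.0448 and 0.0475.

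The other genes of the list moved less. Of the 38, 27 had a negative and 11 a positive log2 fold change with phagocytosis over both genotypes, with a median of -0.13, against -0.02 over all genes. Next to Thbs1, the smallest p-values were those of Itgb1, an integrin gene (84.5 ± 22.5 against 59.3 ± 19.1 CPM in Apoe-/- and 109 ± 20.9 against 77.7 ± 14.2 CPM in wild-type cells, phagocytic against non-phagocytic), and of Trim33, a regulator of SMAD4. Their changes were 0.50 ± 0.16 and -0.57 ± 0.22, and neither passed (edgeR, Benjamini-Hochberg adjusted p = 0.0992 and 0.204). Without Apoe-/- non-phagocytic pool 1, Itgb1 passed (edgeR, Benjamini-Hochberg adjusted p = 0.0488). Itgb1 passed as well with a block for pool number within genotype, when 644 genes were called, against 293 in the main fit. Between genotypes 0 of 38 were called by edgeR or DESeq2 over both sorts, and 5 had an unadjusted p under 0.05 in each tool, where 9.68% of all genes tested did in edgeR. The smallest p-values belonged to Ppm1a, a SMAD phosphatase gene (0.65 ± 0.22 in Apoe-/- against wild-type cells), Fstl1, a follistatin-like gene (0.64 ± 0.24), and Tgif2, a SMAD corepressor gene (-0.93 ± 0.36).

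Among 19 genes known as SMAD targets, 16 were tested, Smad7 among them. With phagocytosis over both genotypes 13 had a negative and 3 a positive log2 fold change, with a median of -0.37 against -0.02 over all genes. In Apoe-/- cells 9 were negative and 7 positive (median -0.13), and in wild-type cells 13 and 3 (median -0.47). Junb, which encodes an AP-1 subunit, was the 1 of 16 called over both genotypes, where 2.36% of all genes tested were. It had 679, 448, 797, 657, 488 and 413 CPM in Apoe-/- phagocytic pools, against 1088, 902, 944, 806, 917 and 914 CPM in Apoe-/- non-phagocytic pools. In wild-type phagocytic pools it had 632, 750, 860, 600 and 440 CPM, against 858, 1232, 953, 788 and 663 CPM in wild-type non-phagocytic pools. Apoe-/- groups did not overlap, and wild-type groups did. Junb fell by 0.56 ± 0.14 on the log2 scale over both genotypes (edgeR, Benjamini-Hochberg adjusted p = 0.0325). Leaving out 1 library raised edgeR's Benjamini-Hochberg adjusted p above the threshold in 8 of 22 cases, namely wild-type phagocytic pools 1 (0.0566), 4 (0.0608) and 5 (0.0779), wild-type non-phagocytic pools 2 (0.0833) and 3 (0.0590), Apoe-/- phagocytic pools 5 (0.0594) and 6 (0.0608) and Apoe-/- non-phagocytic pool 1 (0.0507). The marker sums of border macrophages given with Inhba were higher in phagocytic cells of both genotypes. Dendritic cell markers ran the other way, with 0 positive and 6 negative log2 fold changes over both genotypes, and their sums overlapped between the sorts. The part of both cell types in the changes of Thbs1 and Junb was not tested.

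**Figure D5:**
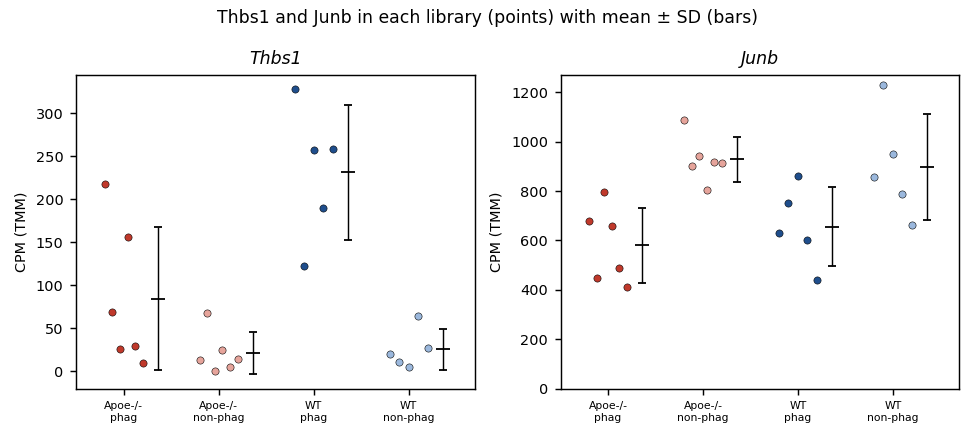
CPM of Thbs1 and Junb after TMM scaling in each library (points) with mean ± SD (bars) in Apoe-/- phagocytic and non-phagocytic (n = 6 each) and wild-type phagocytic and non-phagocytic cells (n = 5 each). Thbs1 is at or above 122 CPM in all 5 wild-type phagocytic libraries and at or below 64.0 CPM in all 5 wild-type non-phagocytic ones; Junb is lower in all 6 Apoe-/- phagocytic than in all 6 Apoe-/- non-phagocytic libraries.

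Finally, 15 genes of the TGF-beta-dependent homeostatic programme of microglia were examined, a list that shares 9 genes with the 10 microglia markers. All 15 were tested, and 0 were called by edgeR or DESeq2 in any of the 7 comparisons. With phagocytosis over both genotypes 12 had a negative and 3 a positive log2 fold change, with a median of -0.35 and a range of -0.79 to 0.45. In that comparison 3 had an unadjusted p under 0.05 in edgeR, where 14.5% of all genes tested did, and 4 in DESeq2. In Apoe-/- against wild-type cells over both sorts, 12 were negative and 3 positive, with a median of -0.15, and 0 had an unadjusted p under 0.05 in either tool.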

How the data were processed

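The deposited tables hold, per the file headers, an estimated count, a TPM value and 2 lengths for each of 116248 transcripts in each library. Salmon 1.4.0, R 4.0.3, DESeq2 1.30.1 and mm10 are named per the submitters' processing notes, without roles. Of trimming, strand setting and annotation the sources used here give nothing. Transcripts were matched to GENCODE M21 (GRCm38), where 116072 matched and 176, with 0.118% to 0.262% of reads, did not and were left out. Estimated counts were summed per gene, rounded and tested with edgeR 4.0.16 (R 4.3.3; quasi-likelihood test, TMM, filterByExpr, 1 fit of 4 groups without an intercept). Benjamini-Hochberg adjustment ran over all 12415 genes tested in each of 7 comparisons, with a threshold of 0.05. The fit gave a common biological coefficient of variation of 0.426. The procedure was tested on simulated data. Levels compared between genes are TPM, as deposited.

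The members and lists were chosen with earlier results of these data known. The genes named were the 10 members, called genes of the 3 lists, the 3 pathway genes with the smallest p in either main effect, and the 5 genes most like Inhba and most like the member highest in TPM. Correlations of members with each other and with library measures used log2(CPM + 1) of the members with group means removed. Their p came from permutations within groups. The genes most like Inhba and Tgfbr2 were picked by Pearson r of log2 CPM (prior count 2) with group means kept, so that differences between groups enter these values. Libraries of a group differed beyond sampling noise, by a chi-square per degree of freedom of 6.43 to 57.8. Alternatives covered scaling, filters, DESeq2 1.42.0, length-scaled counts, satellite-like genes (left out, or their share as covariate), left-out libraries, a block for pool numbers, and transcripts counted. A gene table of FPKM values was not used.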

Additional observations from a re-analysis of the deposited data

Results flagged for a closer look

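In 3 of 40 combinations of member and group, 1 library stood far from the others of its group by Dixon's criterion, and chance gives about 1 in 20. All 3 were Apoe-/- phagocytic libraries. Tgfb1 was at 29.7 CPM in pool 5, where the next library had 17.3 CPM. Tgfbr2 was at 384 CPM in pool 1, where the next had 228 CPM. Smad7 was at 28.6 CPM in pool 2, where the next had 17.6 CPM.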

How the results depend on the processing

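Each of 119 log2 fold changes, of the members and of 7 further named genes, was recomputed under 35 alternatives where the gene could be tested. No called change reversed its sign. The count of members called in the wild-type sort comparison, 1, was 0 with only the groups compared, where Inhba did not pass the filter, and 0 to 1 when libraries were left out in turn. Over both genotypes the count of 1 was 0 to 1 when libraries were left out in turn. It was 2 with the satellite-like share as covariate and 2 with the replicate block of pool within genotype, when Tgfbr1 was called as well (edgeR, Benjamini-Hochberg adjusted p = 0.0408 and 0.0114), as was Itgb1 under the block (0.0373). Of all genes, 293 were called over both genotypes in the main fit. Under alternatives other than left-out libraries 214 to 644 were called, the most under the block. Without a filter on low counts the count of members called was 1 in Apoe-/- against wild-type phagocytic cells. It was also 1 in the difference of the sort effect. Of all genes, 96 and 17 were called in these 2 comparisons without the filter. Inhba in the wild-type sort comparison kept its call under DESeq2 (log2 fold change 5.55) and with length-scaled counts (6.99).

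The labels do not state whether same-numbered pools of the 2 sorts share retinas, and the main fit took them as unpaired. In each genotype, same-numbered pools of the 2 sorts were both low or both high in the Y-linked genes. Same-numbered pools of the 2 sorts correlated at 0.0626 to 0.214 within Apoe-/- (5 of 6 best with their own number) and 0.0402 to 0.423 within wild-type cells (2 of 5). With the block, Inhba changed by 4.56 in wild-type cells (edgeR, Benjamini-Hochberg adjusted p = 0.0414), and the genes called numbered 135, 255 and 644 in wild-type cells, Apoe-/- cells and over both genotypes, against 26, 58 and 293 without it. With no filter, 96, 16, 192 and 17 genes were called in Apoe-/- against wild-type phagocytic cells, non-phagocytic cells, both sorts and the difference of the sort effect, against 4, 2, 7 and 0. DESeq2 called 103, 168 and 513 in the 3 sort comparisons. Leaving out libraries gave 13 to 64, 18 to 89 and 191 to 355 in those, and 3 to 23 in phagocytic cells, 2 each time in non-phagocytic cells and 5 to 30 over both sorts between genotypes. Depth limits the low members, as Acvr1b, Inhba and Acvr2a had 436, 465 and 496 reads over 22 libraries.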
